A study of Homo sapiens with 6 samples.

Results

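The genes described here encode the proteins of 4 kinds of cell-cell contact: tight junctions, desmosomes, adherens junctions and gap junctions. They were taken by name, 39 genes in all, from a deposited expression table of 58735 genes, and each of the 39 names matched 1 row. By role they are 17 tight junction, 11 desmosome, 8 adherens junction and 3 gap junction genes. The libraries are RNA-seq of SK-MES-1, an established human lung squamous cell carcinoma line. The labels give 3 groups of 2 libraries, all from that line: NC, the control cells, and si1 and si2, both from cells with transient knockdown of KRT6A, a keratin gene. The labels do not spell out NC, si1 or si2, give no sequence or dose of the knockdown reagents and no time after knockdown, and do not say that the 2 libraries of a group came from separate cultures. The p-values therefore measure only the spread between these libraries, which may be technical.

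Tight junctions seal the space between epithelial cells, with claudins and occludin in the membrane and zonula occludens and cingulin proteins on the cytoplasmic side. Desmosomes tie the keratin filaments of neighbouring cells together through desmosomal cadherins, plakoglobin, plakophilins and desmoplakin, and are abundant in squamous epithelia. Adherens junctions join classical cadherins and nectins to actin through catenins and afadin, and gap junctions are channels of connexins that let small molecules pass between cells.

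Levels are FPKM as deposited, fragments per kilobase of gene length after scaling between libraries. They can be set side by side between genes as far as the gene length used suits the transcripts present. The 6 libraries held 14948607 to 17401392 reads, and 12333 to 12439 genes reached 1 FPKM in a library. KRT6A itself had 0 FPKM in all 6 libraries, the NC libraries included, so the knockdown could not be checked from its target. Of 6 epithelial markers, 5 averaged 1 FPKM or more, the exception being CDH1 (E-cadherin, 0.0388 to 0.256 FPKM). Of 6 mesenchymal markers 5 did so too (248.6 to 308 FPKM, with COL1A2 at 0), but of 7 squamous and basal markers only TP63 did. The squamous sum was 6.15 and 6.83 FPKM in NC, 6.14 and 5.67 in si1, and 13.9 and 11.8 in si2, nearly all of it TP63. The epithelial sum was 264 and 277 FPKM in si2 and 354.6 to 379 in the other 4 libraries. The part of either sum in the results of si2 was not tested. None of 4 endothelial and 4 immune markers reached a mean of 1 FPKM.

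Of the 39 junction genes, 26 averaged 1 FPKM or more across the libraries and were tested, and 13 lay below 1 FPKM in every library. Transcript levels were uneven within each junction type. CTNNA1 (alpha-catenin) averaged 59.6 FPKM, DSG2 (desmoglein-2) 55.3 and PERP, a tetraspan membrane protein of desmosomes, 86.1. DSG3, the desmoglein of basal squamous cells, had 0 reads in each library, which allows at most 0.0359 FPKM. CDH3 (P-cadherin) stayed at or below 0.161 FPKM, and CDH1 was close to 0, whereas CDH2 (N-cadherin), which is not among the 39, had 34.9 to 42.3 FPKM. OCLN (occludin) reached at most 0.760 FPKM. DSP (desmoplakin), the link from the desmosome to keratin, averaged only 1.30 FPKM beside 27.7 for JUP (plakoglobin).

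**Figure D1:**
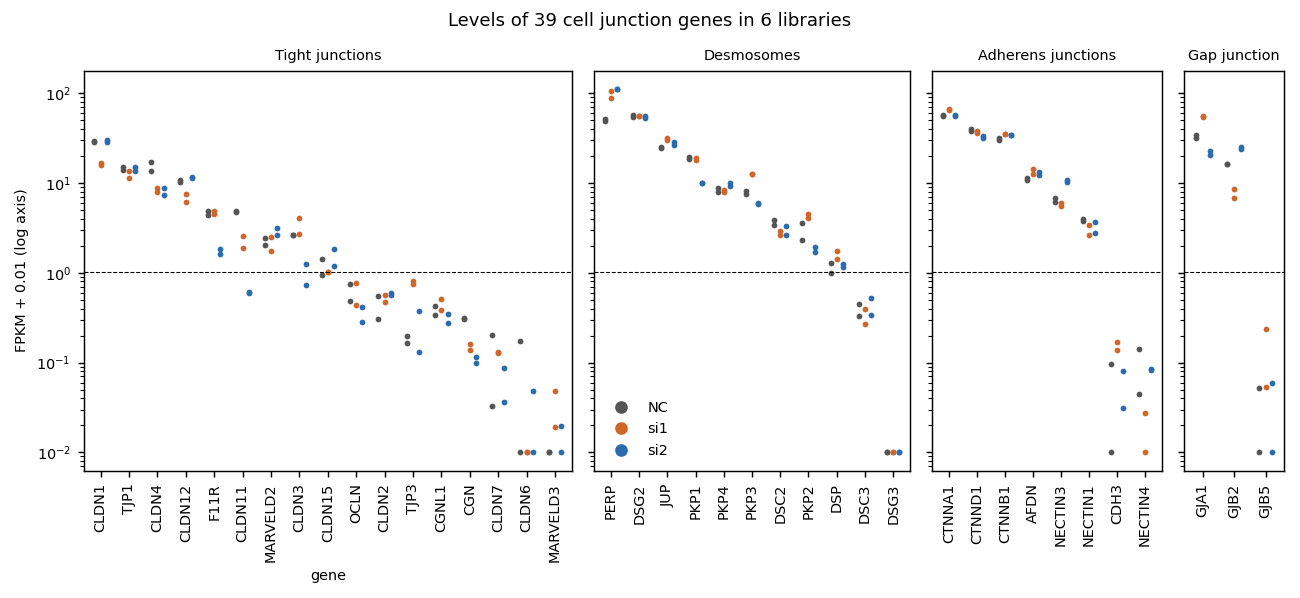
FPKM + 0.01 of each of the 39 junction genes (log axis), with 1 point per library coloured by group and genes ordered by mean within each junction type. The dashed line marks 1 FPKM: 26 genes have a mean above it, and DSG3 lies at 0 in all 6 libraries.

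Which of these genes moved in each knockdown group was tested with limma on log2(FPKM + 1), with Benjamini-Hochberg adjustment over the 12319 genes tested and a threshold of 0.05 on the adjusted p. Fold changes are on that log2(FPKM + 1) scale, which understates the change of genes with low values. In si1 against NC, 5 of the 26 tested junction genes were higher (19.2%, beside 9.47% of all genes tested) and 5 were lower (19.2%, beside 12.9%). In si2 against NC, 3 were higher (11.5%, beside 13.6% of all genes tested) and 8 were lower (30.8%, beside 15.4%). The median log2 fold change of the 26 genes was −0.04 in si1 and −0.02 in si2, and over all genes tested it was −0.01 and 0.00464. PERP rose in both groups, and CLDN4 and CLDN11 fell in both. PKP3, GJA1 and GJB2 moved in opposite directions in si1 and si2. A further 4 genes passed in si1 alone of the 2 (CLDN1, CLDN12, JUP and CTNNA1) and 5 in si2 alone (CLDN3, F11R, PKP1, CTNND1 and NECTIN3). How many of all genes tested showed each of these patterns was not counted, so none can be called particular to junction genes. The 2 comparisons share the NC libraries. In the direct comparison of si2 with si1, 4 junction genes were higher in si2 (15.4%, beside 19.9% of all genes tested) and 8 were lower (30.8%, beside 18.6%). In bulk RNA, fewer cells with a transcript and less of it per cell cannot be told apart.

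**Figure D2:**
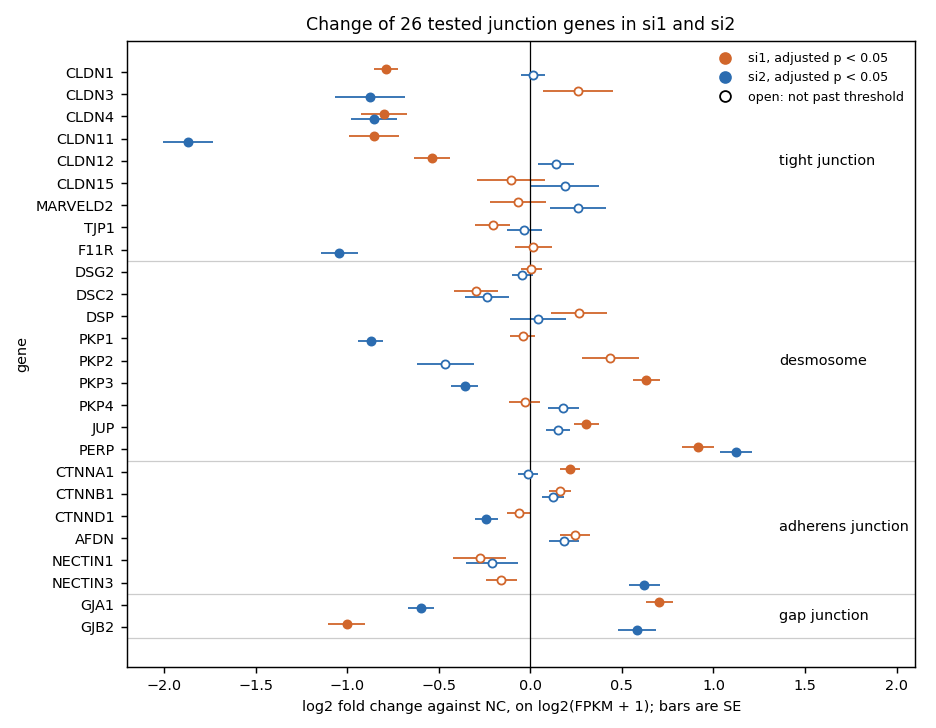
Log2 fold change against NC, on the log2(FPKM + 1) scale, of the 26 tested junction genes in si1 (orange) and si2 (blue), with limma's SE as bars and filled points for an adjusted p under 0.05. PERP lies to the right in both groups and CLDN4 and CLDN11 to the left in both, while PKP3, GJA1 and GJB2 lie on opposite sides.

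Of the 6 genes that passed in both groups, 5 have a promoter window in RefSeq (250 bases before to 50 after a start site, GRCh38.p14), and these windows are shown because they are the upstream sequence of the genes that moved in si1 and in si2. Capitals mark matches, on either strand, to TGANTCA, the AP-1 motif, or to CAGGTG, an E-box bound by SNAI and ZEB factors.
CLDN4 (chr7:73830746-73831045, + strand): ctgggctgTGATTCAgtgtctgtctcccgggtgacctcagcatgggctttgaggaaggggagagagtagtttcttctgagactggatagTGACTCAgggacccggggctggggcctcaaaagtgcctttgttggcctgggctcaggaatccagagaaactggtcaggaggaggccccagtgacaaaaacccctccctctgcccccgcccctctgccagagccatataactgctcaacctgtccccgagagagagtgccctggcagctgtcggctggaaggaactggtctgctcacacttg
CLDN11 (chr3:170418618-170418917, + strand): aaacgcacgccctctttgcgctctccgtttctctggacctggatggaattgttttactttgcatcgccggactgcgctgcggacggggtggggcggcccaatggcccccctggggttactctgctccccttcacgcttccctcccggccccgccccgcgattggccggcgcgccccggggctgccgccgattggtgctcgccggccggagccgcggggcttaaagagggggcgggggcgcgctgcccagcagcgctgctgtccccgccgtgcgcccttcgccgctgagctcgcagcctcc
PERP (chr6:138107370-138107669, − strand): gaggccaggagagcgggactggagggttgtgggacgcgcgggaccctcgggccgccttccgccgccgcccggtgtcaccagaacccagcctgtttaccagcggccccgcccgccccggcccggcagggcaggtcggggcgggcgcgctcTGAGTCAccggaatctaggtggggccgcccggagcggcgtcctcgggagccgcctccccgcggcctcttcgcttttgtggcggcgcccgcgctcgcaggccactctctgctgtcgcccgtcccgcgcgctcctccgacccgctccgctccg
GJA1 (chr6:121435396-121435695, + strand): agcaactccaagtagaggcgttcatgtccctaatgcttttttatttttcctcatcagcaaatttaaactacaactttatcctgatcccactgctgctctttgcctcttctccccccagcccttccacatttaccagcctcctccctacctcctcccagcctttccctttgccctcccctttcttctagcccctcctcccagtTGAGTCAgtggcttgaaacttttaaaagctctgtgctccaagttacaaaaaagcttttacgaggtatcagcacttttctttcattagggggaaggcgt
GJB2 (chr13:20192889-20193188, − strand): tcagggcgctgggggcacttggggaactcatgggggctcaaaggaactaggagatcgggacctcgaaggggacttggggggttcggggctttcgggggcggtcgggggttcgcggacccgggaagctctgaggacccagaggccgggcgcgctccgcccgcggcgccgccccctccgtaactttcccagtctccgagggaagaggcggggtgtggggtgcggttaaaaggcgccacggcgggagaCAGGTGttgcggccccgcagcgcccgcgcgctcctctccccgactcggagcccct
The CLDN4 window holds 2 TGANTCA matches, 242 and 161 bases before the RefSeq start site, and those of PERP and GJA1 hold 1 each, 101 and 48 bases before it. The GJB2 window holds CAGGTG 5 bases before the start, and the CLDN11 window holds no match to any motif searched. The CLDN4 window lies inside the gene as the deposited table draws it, and its RefSeq start site is 31454 bases after that gene's first base. RefSeq gave 45 windows for 31 of the 39 genes. TGANTCA was in 5 of the 45 (11.1%), in genes CLDN2, CLDN4, CLDN15, GJA1 and PERP, and in 7.71% of all 35116 windows. CAGGTG was in 14 of the 45 (31.1%) and in 20.6% of all windows. GGAATG, the TEAD motif, was in 1 of the 45, that of CLDN15 (2.22%, beside 14.0% of all windows), and AACCNGTT, the grainyhead-like motif, was in 1, that of CGN (2.22%, beside 1.73%). The median GC content was 67% in the 45 windows and 58.7% in all windows, and the motif shares were not adjusted for it. A match describes the sequence only and is no evidence of binding.

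The 9 tight junction genes tested among the 39 fell or did not pass, and none of them rose in si1 or in si2. This does not hold for all tight junction genes, since of 14 tested outside the 39, 2 rose in si1 and 1 in si2. Of all genes tested, 9.47% were called higher in si1 and 13.6% in si2, so 0 of 9 is not far from those shares. In each group 4 of the 9 fell, but not the same 4: CLDN1, CLDN4, CLDN11 and CLDN12 in si1, and CLDN3, CLDN4, CLDN11 and F11R in si2. That is 44.4% of the 9 in each group, beside 12.9% of all genes tested called lower in si1 and 15.4% in si2. The median log2 fold change of the 9 genes was −0.20 in si1 and −0.03 in si2. The claudins are the 4-pass membrane proteins that set which ions and solutes cross the seal. Summed over the 9 listed claudins, they came to 62.4 and 65.5 FPKM in NC, 39.3 and 38.5 in si1, and 54.2 and 51.0 in si2.

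CLDN1 (chr3:190305701-190322475, hg38), a sealing claudin of skin and other squamous epithelia, was the most abundant claudin by FPKM. That rank rests on the gene lengths used, 3663 bases for CLDN1 and 4702 for CLDN4. The CLDN4 length takes in sequence before its RefSeq start site, and a shorter length would raise its FPKM. CLDN1 stood at 28.7 and 29.1 FPKM in NC, 16.6 and 16.0 in si1, and 30.1 and 28.4 in si2. The si1 libraries lay below all others, while si2 and NC overlapped. CLDN1 fell by 0.79 log2 units in si1 (SE 0.0649, adjusted p = 4.55e-04), and its difference from NC in si2 was 0.01 (95% interval −0.14 to 0.17). Between si2 and si1 it differed by 0.80 (SE 0.0649, adjusted p = 2.16e-04), with si2 higher. CLDN12 (chr7:90383721-90513402), a claudin that lacks the usual PDZ-binding tail, had a similar order of groups. Its levels were 10.7 and 10.1 FPKM in NC, 6.20 and 7.62 in si1, and 11.7 and 11.5 in si2, with no overlap between groups. CLDN12 fell by 0.54 in si1 (SE 0.0989, adjusted p = 0.00993), a call that ended when NC replicate 1 was left out (−0.50, adjusted p = 0.0761) or no filter on low values was used (adjusted p = 0.0554). Its exons share 347 bases with GTPBP10 and 201 with CDK14 on the same strand, which were at 1.89 and 2.88 FPKM.

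CLDN4 (chr7:73799542-73832693), a claudin of many glandular epithelia, was at 13.7 and 17.1 FPKM in NC, 8.87 and 7.93 in si1, and 8.79 and 7.34 in si2. Both knockdown groups lay below both NC libraries and overlapped each other. CLDN4 fell by 0.80 in si1 (SE 0.126, adjusted p = 0.00551) and by 0.85 in si2 (SE 0.126, adjusted p = 0.00372). The 2 groups differed by −0.05, with a 95% interval of −0.35 to 0.24. Its neighbour CLDN3 (chr7:73768997-73770270), on the other strand, moved differently. CLDN3 was at 2.63 and 2.59 FPKM in NC, 4.08 and 2.69 in si1, and 1.24 and 0.727 in si2. It fell in si2 by 0.88 (SE 0.190, adjusted p = 0.0152) and was lower in si2 than in si1 by 1.14 (SE 0.190, adjusted p = 0.00381). Leaving out NC replicate 1 or NC replicate 2 ended its call against NC (adjusted p = 0.0754 and 0.0767), as did leaving out si2 replicate 2 (−0.69, adjusted p = 0.0678) or the filter on low values (adjusted p = 0.0933). With a pseudocount of 0.1 the fall was −1.36 log2 units.

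CLDN11 (chr3:170418865-170454733), known from myelin and the Sertoli cell barrier, showed the deepest fall of the 26 genes. It was at 4.75 and 4.87 FPKM in NC, 1.88 and 2.58 in si1, and 0.594 and 0.585 in si2. The 3 groups did not overlap, and si2 was lowest. CLDN11 fell by 0.85 in si1 (SE 0.135, adjusted p = 0.00548) and by 1.87 in si2 (SE 0.135, adjusted p = 2.82e-04), and the difference between si2 and si1 was −1.02 (SE 0.135, adjusted p = 0.00153). On recovered reads, with no pseudocount of 1 FPKM, the changes were −1.10 in si1 and −3.01 in si2. CLDN11 supplied 7.60% and 7.43% of the summed claudin FPKM in NC, 4.80% and 6.70% in si1, and 1.10% and 1.15% in si2. CLDN15, a pore-forming claudin, stayed between 0.945 and 1.81 FPKM and passed in neither group.

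Outside the claudins, F11R (chr1:160995211-161021348), which encodes the adhesion molecule JAM-A, fell in si2. It was at 4.87 and 4.38 FPKM in NC, 4.49 and 4.89 in si1, and 1.85 and 1.61 in si2. The si2 libraries lay below all others, and NC and si1 overlapped. F11R fell by 1.04 in si2 (SE 0.101, adjusted p = 7.72e-04), and was lower in si2 than in si1 by 1.06 (SE 0.101, adjusted p = 4.04e-04). In si1 it differed from NC by 0.02 (95% interval −0.22 to 0.26). The gene shares 36.6% of its exon bases with AL591806.3, an overlapping transcription unit on the same strand at 0.0774 FPKM, so its reads could be split between the 2. TJP1 (ZO-1), the main scaffold of the tight junction plaque, ran from 11.5 to 14.9 FPKM over the 6 libraries and MARVELD2 (tricellulin) from 1.72 to 3.11, and neither passed in any comparison.

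The other 8 tight junction genes were below 1 FPKM in every library and outside that test. OCLN ranged from 0.272 to 0.760 FPKM, CLDN2 from 0.298 to 0.582 and CGNL1 (paracingulin) from 0.267 to 0.494. CLDN7 had 23 reads in all 6 libraries together, CLDN6 had 6 and MARVELD3 had 6. TJP3 (ZO-3) had 11 and 14 reads in NC, 51 and 57 in si1, and 8 and 23 in si2, so the si1 libraries stood above the rest. CGN (cingulin) had 34 and 34 reads in NC, 14 and 17 in si1, and 11 and 9 in si2, so both knockdown groups were below NC. In an added limma-voom fit of recovered reads to genes with at least 10 reads in 2 or more libraries, chosen after the data were seen, TJP3 rose by 2.13 log2 units in si1 (SE 0.535, adjusted p = 0.00345). That fit called 23.8% of all genes in si1, 28.6% in si2 and 35.4% in si2 against si1. In it TJP3 was lower in si2 than in si1 by 1.87 (SE 0.519, adjusted p = 0.0051), and CGN fell in si2 by 1.57 (SE 0.574, adjusted p = 0.039) while in si1 CGN did not pass (−1.06, SE 0.505, adjusted p = 0.135).

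**Figure D3:**
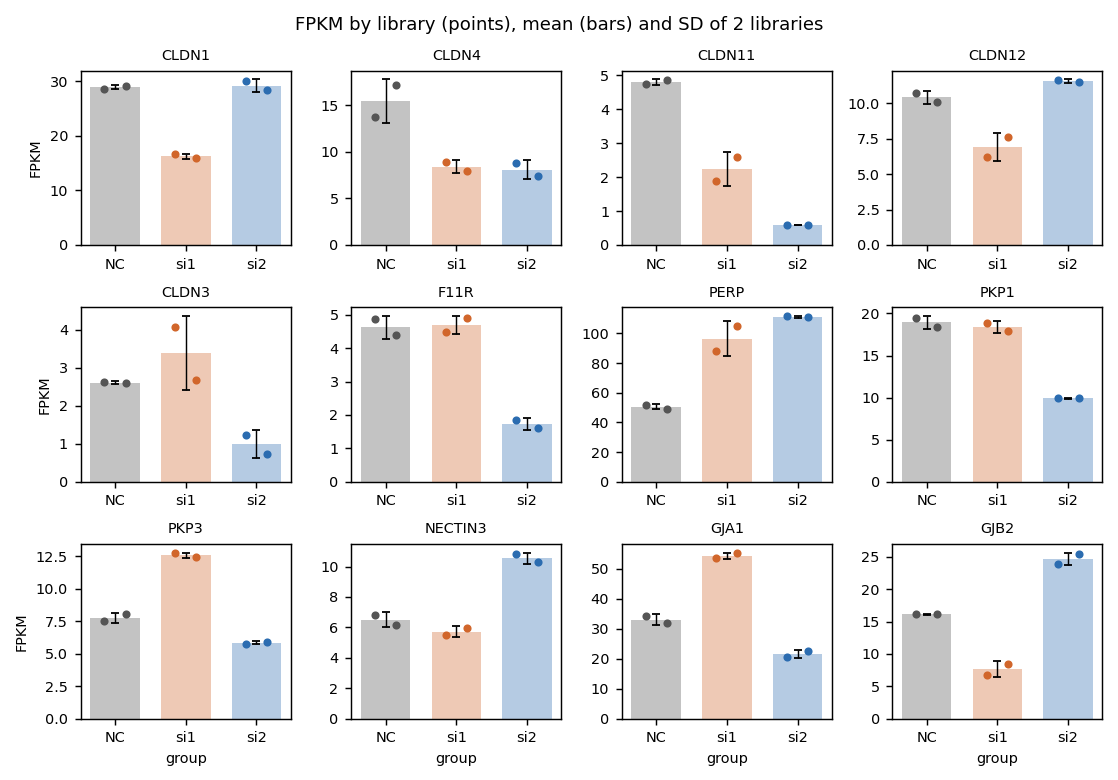
FPKM of 12 junction genes that passed in si1 or si2 with a change of at least 0.5 log2 units, as points for the single libraries, bars for the group mean and error bars for the SD of 2 libraries. CLDN1 and CLDN12 are lowest in si1, F11R and PKP1 in si2, and GJA1 and GJB2 show opposite orders of the 3 groups.

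Desmosome genes went both ways. Of the 9 tested, 3 rose and 0 fell in si1 (PERP, PKP3 and JUP), and 1 rose and 2 fell in si2 (PERP against PKP1 and PKP3). Of the 9, 33.3% were thus higher in si1, beside 9.47% of all genes tested, and 22.2% lower in si2, beside 15.4%. Their median log2 fold change was 0.27 in si1 and −0.04 in si2. Summed over all 11 genes, desmosome transcripts came to 178 and 171 FPKM in NC, 225 and 238 in si1, and 226 and 223 in si2. The higher sum in si2 does not stand for the class, since PERP was the only desmosome gene called higher there. Nor does the higher sum in si1, where 6 of the 9 tested genes did not pass. There the mean of PERP alone went from 50.6 FPKM in NC to 96.5. PERP supplied 49.3% and 49.7% of the sum in si2, beside 29.2% and 28.9% in NC.

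PERP (chr6:138088505-138107511), a target of p53 and p63 that is needed for desmosome assembly in skin, was at 51.8 and 49.3 FPKM in NC, 88.1 and 105 in si1, and 112 and 111 in si2. All 4 knockdown libraries lay above both NC libraries. PERP rose by 0.91 in si1 (SE 0.0858, adjusted p = 7.55e-04) and by 1.12 in si2 (SE 0.0858, adjusted p = 3.57e-04). Its share of the summed desmosome FPKM was 29.2% and 28.9% in NC, 39.1% and 44.2% in si1, and 49.3% and 49.7% in si2. The difference between si2 and si1 was 0.21 (95% interval 0.0060 to 0.41, adjusted p = 0.096), and it passed without si1 replicate 2 (0.33, adjusted p = 0.00766). With si1 and si2 averaged and set against NC, 2 of the 26 genes were higher, PERP and JUP (7.69%, beside 8.73% of all genes tested), and 5 were lower, CLDN1, CLDN4, CLDN11, F11R and PKP1 (19.2%, beside 11.8%). Such a call does not mean a change in both groups, and of these 7 only PERP, CLDN4 and CLDN11 passed in both. CLDN1 was at 0.01 in si2, F11R at 0.02 in si1 and PKP1 at −0.04 in si1, and JUP did not pass in si2. PERP alone of the 7 passed with the 4 knockdown libraries as 1 group, and 4 of the 26 passed without NC replicate 1 or without NC replicate 2.

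The desmosomal cadherins did not pass in either group. DSG2 (chr18:31498043-31549008) was at 56.8 and 54.8 FPKM in NC, 56.3 and 55.6 in si1, and 55.6 and 52.7 in si2. Both knockdown groups overlapped NC, and the 2 si2 values lay just below the 2 of si1. Its log2 fold change was 0.01 in si1 (95% interval −0.13 to 0.14) and −0.04 in si2 (−0.18 to 0.10). DSC2 (desmocollin-2) was at 3.82 and 3.42 FPKM in NC and between 2.60 and 3.27 in the knockdown libraries. It did not pass in si1 (−0.30, adjusted p = 0.124) or si2 (−0.24, adjusted p = 0.186), though by limma-voom on recovered reads it did (−0.38, adjusted p = 0.016, and −0.30, adjusted p = 0.0449). DSC3 (desmocollin-3), the desmocollin of basal squamous cells, stayed between 0.260 and 0.520 FPKM. DSC3, DSC2, DSG3 and DSG2 all lie on chromosome 18, and their mean levels over the 6 libraries were 0.375, 3.11, 0 and 55.3 FPKM.

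The plakophilins, armadillo-repeat proteins that cluster desmosomal cadherins and bind desmoplakin, changed differently from one another. PKP1 (chr1:201283452-201332993), the plakophilin of stratified epithelia, was at 19.5 and 18.4 FPKM in NC, 18.9 and 17.9 in si1, and 9.90 and 9.91 in si2. The si2 libraries stood well below the other 4, which overlapped. PKP1 fell by 0.87 in si2 (SE 0.069, adjusted p = 4.06e-04) and differed from NC by −0.04 in si1 (95% interval −0.21 to 0.12). PKP1 was lower in si2 than in si1 by 0.83 (SE 0.069, adjusted p = 2.44e-04).

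PKP3 (chr11:392614-404908), found in most epithelia, was at 7.47 and 8.04 FPKM in NC, 12.7 and 12.5 in si1, and 5.75 and 5.92 in si2. The 3 groups did not overlap, with si1 highest and si2 lowest. PKP3 rose by 0.63 in si1 (SE 0.0738, adjusted p = 0.00165) and fell by 0.36 in si2 (SE 0.0738, adjusted p = 0.0129), a difference between the groups of −0.99 (SE 0.0738, adjusted p = 1.69e-04). Its fall in si2 no longer passed once NC replicate 2 (−0.31, adjusted p = 0.0958), si2 replicate 1 (−0.34, adjusted p = 0.0764) or si2 replicate 2 (−0.38, adjusted p = 0.0542) was left out. PKP2, the plakophilin of heart and simple epithelia, had the same order at lower levels. It was at 3.55 and 2.33 FPKM in NC, 4.45 and 4.09 in si1, and 1.95 and 1.70 in si2. PKP2 did not pass in si1 (0.44, adjusted p = 0.0918) or in si2 (−0.46, adjusted p = 0.0658), but was lower in si2 than in si1 by 0.90 (SE 0.158, adjusted p = 0.00457). It passed in si1 without NC replicate 1 (0.66, adjusted p = 0.0411), and in si2 without NC replicate 2 (−0.69, adjusted p = 0.0298) and with a replicate block (−0.46, adjusted p = 0.0444). PKP4 ran from 7.90 to 9.94 FPKM and passed in no comparison. Summed, the 4 plakophilins came to 39.4 and 36.7 FPKM in NC, 44.0 and 42.9 in si1, and 27.5 and 26.8 in si2.

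JUP (chr17:41754604-41786931), the plakoglobin shared by desmosomes and adherens junctions, was at 24.5 and 24.9 FPKM in NC, 31.7 and 29.9 in si1, and 26.6 and 28.5 in si2. The si1 libraries lay above the rest. It rose by 0.31 in si1 (SE 0.0671, adjusted p = 0.0188), a call lost without NC replicate 1 (adjusted p = 0.118) or NC replicate 2 (adjusted p = 0.0928). JUP did not pass in si2 (0.15, adjusted p = 0.138). DSP was at 0.996 and 1.28 FPKM in NC, 1.74 and 1.40 in si1, and 1.25 and 1.15 in si2, and passed in neither group.

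**Figure D4:**
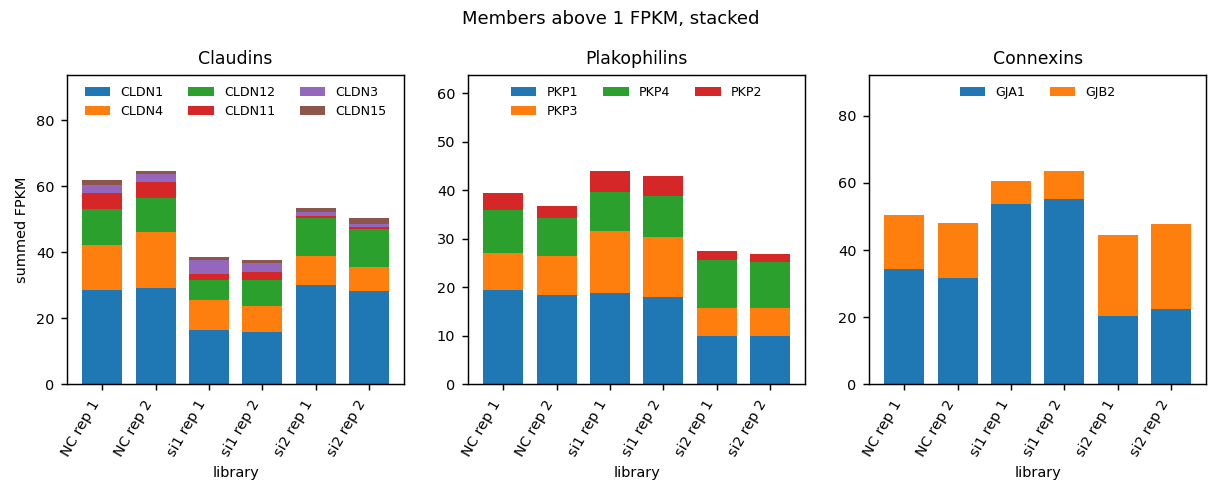
Summed FPKM by library for the claudins, plakophilins and connexins with a mean of at least 1 FPKM, stacked by gene. The claudin stack is lowest in the 2 si1 libraries, the plakophilin stack in the 2 si2 libraries, and GJA1 and GJB2 take different shares of the connexin stack in each group.

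Adherens junction genes had the smallest median size of log2 change of the 4 junction types, 0.191 in si1 and 0.197 in si2. Of the 6 tested, 1 rose and 0 fell in si1 (CTNNA1), and 1 rose and 1 fell in si2 (NECTIN3 and CTNND1). Each is 16.7% of the 6, beside 9.47% of all genes tested called higher in si1 and 13.6% higher and 15.4% lower in si2. With sign, their median log2 fold change was 0.05 in si1 and 0.06 in si2. CTNNA1 (chr5:138610967-138935034), which links cadherins to actin, was at 56.2 and 57.1 FPKM in NC, 67.0 and 65.0 in si1, and 57.2 and 55.1 in si2. The si1 libraries lay above the rest. It rose by 0.22 in si1 (SE 0.0561, adjusted p = 0.0328), and that call was lost in 8 of 15 alternatives, among them the fits that left out NC replicate 1 or 2 (adjusted p = 0.182 and 0.136), si1 replicate 1 (0.0567) or either si2 replicate (0.0682). CTNNA1 was lower in si2 than in si1 by 0.23 (SE 0.0561, adjusted p = 0.0174), which was lost without si2 replicate 1 (adjusted p = 0.0657) or si2 replicate 2 (adjusted p = 0.113).

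CTNND1 (p120-catenin), which keeps cadherins at the cell surface, was at 37.6 and 39.4 FPKM in NC, 37.6 and 36.0 in si1, and 33.2 and 31.6 in si2. It fell by 0.24 in si2 (SE 0.0637, adjusted p = 0.0298), a call lost without any 1 of the 4 libraries compared (adjusted p = 0.0896 to 0.178), with a replicate block (adjusted p = 0.0585) and with no filter on low values (adjusted p = 0.0613). CTNNB1 (beta-catenin), also the effector of Wnt signalling, ran from 30.2 to 35.03 FPKM and did not pass in si1 (0.16, adjusted p = 0.0967) or si2 (0.12, adjusted p = 0.168).

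NECTIN3 (chr3:111070071-111275563), an immunoglobulin-like adhesion molecule that binds other nectins across the cell gap, was at 6.84 and 6.18 FPKM in NC, 5.47 and 5.97 in si1, and 10.8 and 10.3 in si2. The si2 libraries lay above all others. NECTIN3 rose by 0.62 in si2 (SE 0.0846, adjusted p = 0.00273) and differed between si2 and si1 by 0.78 (SE 0.0846, adjusted p = 6.74e-04), with si2 higher. In si1 it did not pass (−0.16, adjusted p = 0.223). NECTIN1 ran from 2.64 to 3.96 FPKM and did not pass. AFDN (afadin), the anchor of nectins on actin, was at 10.8 and 11.4 FPKM in NC and between 12.4 and 14.2 in the knockdown libraries, all above NC. AFDN did not pass in si1 (0.24, adjusted p = 0.0802; without si1 replicate 2, 0.33, adjusted p = 0.0467) or si2 (0.18, adjusted p = 0.145). CDH3 had 48 reads and NECTIN4 had 19 over the 6 libraries.

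Both gap junction genes tested differed between si1 and si2, in opposite directions. Of all genes tested, 19.9% were called higher in si2 than in si1 and 18.6% lower. In si1 and in si2, 1 of the 2 rose and 1 fell, 50% each. Over all genes tested, 9.47% were higher and 12.9% lower in si1, and 13.6% and 15.4% in si2. GJA1 (chr6:121435577-121449727) encodes connexin 43, the most widely expressed connexin. It was at 34.3 and 31.8 FPKM in NC, 53.7 and 55.2 in si1, and 20.5 and 22.4 in si2. The 3 groups did not overlap, with si1 highest and si2 lowest. GJA1 rose by 0.71 in si1 (SE 0.0719, adjusted p = 0.00102) and fell by 0.60 in si2 (SE 0.0719, adjusted p = 0.00168), and the groups differed by −1.30 (SE 0.0719, adjusted p = 5.95e-05).

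GJB2 (chr13:20187463-20193010) encodes connexin 26, a connexin of skin, airway and inner ear epithelia. It was at 16.1 and 16.2 FPKM in NC, 6.73 and 8.47 in si1, and 24.0 and 25.4 in si2. The 3 groups did not overlap here either, and their order was the reverse of that of GJA1. GJB2 fell by 1.00 in si1 (SE 0.103, adjusted p = 0.00103) and rose by 0.58 in si2 (SE 0.103, adjusted p = 0.00736), a difference of 1.58 between si2 and si1 (SE 0.103, adjusted p = 1.05e-04). The ratio of GJA1 to GJB2 in FPKM was 2.13 and 1.96 in NC, 7.98 and 6.51 in si1, and 0.856 and 0.883 in si2. Averaged over si1 and si2 the opposite moves nearly cancelled, with GJA1 at 0.05 (adjusted p = 0.588) and GJB2 at −0.21 (adjusted p = 0.142, or −0.28 and 0.0213 without si1 replicate 2). GJB5, a skin connexin, had 8 reads over the 6 libraries.

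Further junction genes outside the 39 were listed by role. Of 33 other tight junction genes 14 were tested, and 2 rose and 0 fell in si1 (14.3% higher, beside 9.47% of all genes tested) while 1 rose and 3 fell in si2 (7.14% and 21.4%, beside 13.6% and 15.4%). The polarity kinase genes PRKCZ (−0.57, SE 0.106) and PRKCI (−0.46, SE 0.0757) fell in si2, and PARD6B, their partner, rose (0.54, SE 0.140). Of 6 other desmosome genes 2 were tested, both of them plakins of the cornified envelope. PPL (periplakin) rose from 12.3 and 13.04 FPKM in NC to 20.3 and 16.5 in si1 (0.50, SE 0.0997, adjusted p = 0.0134) and 26.8 and 28.0 in si2 (1.06, SE 0.0997, adjusted p = 7.04e-04). EVPL (envoplakin) rose in si1 (0.55, SE 0.0919, adjusted p = 0.00659) and did not pass in si2 (−0.21, adjusted p = 0.14).

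Of 17 other adherens junction genes 9 were tested, with 0 higher and 5 lower in si1 (55.6% lower, beside 12.9% of all genes tested) and 1 higher and 4 lower in si2 (11.1% and 44.4%, beside 13.6% and 15.4%). LIMA1 (EPLIN), which ties alpha-catenin to actin, fell from 26.5 and 26.4 FPKM in NC to 15.3 and 16.0 in si1 (−0.73, SE 0.0801) and 17.7 and 15.4 in si2 (−0.65, SE 0.0801). NECTIN2 fell in si2 (−0.70, SE 0.073, adjusted p = 0.00101), where NECTIN3 rose. PLEKHA7 rose in si2 (0.65, SE 0.126, adjusted p = 0.0103). CDH2 fell by 0.24 in si1 (SE 0.0576, adjusted p = 0.0273) and did not pass in si2 (−0.10, adjusted p = 0.223). Among other connexin genes, GJC1 fell in si1 (−0.47, SE 0.0722, adjusted p = 0.00471) and GJA3 fell in si2 (−0.59, SE 0.180, adjusted p = 0.0481).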

How the data were processed

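Gene-level FPKM for 6 libraries (3 groups of 2) and gene lengths were deposited by the authors. Per the submitters' processing notes the build was hg38. Which aligner, counter and annotation made the values, and whether strand was used, is not given in the sources used here. Of the 58735 genes, 58724 had the start and end of GENCODE release 29. Multiplied by gene length, every FPKM in a library came out as a whole number of equal steps (100% of values, within 0.001 reads), which gave back the reads. Median-of-ratios size factors of the deposited values were 1.011 in all 6 libraries, so that rescaling could change nothing. The values may already have been scaled in that way, which the sources used here do not state.

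The 12319 genes that averaged 1 FPKM or more were tested with limma 3.58.1 in R 4.3.3 on log2(FPKM + 1), with 1 coefficient per group, a variance trend, two-sided tests and Benjamini-Hochberg adjustment over all genes tested in a contrast. Contrasts were si1, si2 and their mean against NC, and si2 against si1. Errors are limma's SE. A count of 0 allows up to 3 reads, which covers counting error only. The fit was tested on simulated data with the same change in si1 and si2 and the same spread setting for all genes. That run did not cover the comparison of si2 with si1.

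The 39 genes, the further gene lists and the tests were chosen with earlier results of these data known. All 39 are named. Values of every library are given where a gene passed and changed by at least 0.5 log2 units, for the most abundant gene of each junction type and for some others picked after their values were seen. From each further list up to 3 of the most changed genes and CDH1 and CDH2 are named. For the other connexins 1 result is not reported here. Overlapping genes cannot be told apart by strand here. A planned comparison of claudin proteins was not run.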

Additional observations from a re-analysis of the deposited data

Results flagged for a closer look

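The response differed between si1 and si2 for 12 of the 26 junction genes tested, by limma's direct comparison of si2 with si1 at an adjusted p under 0.05. Of these, 4 were higher in si2 (15.4% of the 26, beside 19.9% of all genes tested) and 8 were lower (30.8%, beside 18.6%). The log2 differences, si2 minus si1, were 0.8042 for CLDN1, −1.138 for CLDN3, −1.016 for CLDN11, 0.6759 for CLDN12 and −1.061 for F11R. Among desmosome genes they were −0.8298 for PKP1, −0.9012 for PKP2 and −0.9913 for PKP3. They were −0.229 for CTNNA1, 0.7805 for NECTIN3, −1.304 for GJA1 and 1.585 for GJB2.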

How the results depend on the processing

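In si1 and si2 together against NC, the count of changed junction genes was 7 in the reported fit. With the 4 knockdown libraries as 1 group it was 1 (PERP). By limma-voom on recovered reads it was 11, the added genes being DSC2, CTNNB1, AFDN and NECTIN3. It was 12 by limma-voom with at least 10 reads in 2 or more libraries, which also tested 7 genes of low level. It was 4 to 10 when 1 library was left out, with 4 without either NC replicate 1 or NC replicate 2. In si1 against NC the count was 10 of 26. It was 16 of 33 by limma-voom with at least 10 reads in 2 or more libraries, a fit that called 23.8% of all genes. For the other alternative counts in this paragraph the share of all genes called was not computed. Limma-voom on recovered reads also called DSC2, DSP, PKP2, CTNNB1 and AFDN in si1 against NC, and DSC2 and PKP2 in si2 against NC. Every other count stayed within 1.5 times its reported value, including those for si2 (11) and for si2 against si1 (12). No called gene changed direction under any alternative run. Calls for 7 of 10 genes in si1, 8 of 11 in si2, 11 of 12 between si2 and si1 and 1 of 7 in the 2 groups together were kept in all 15 alternatives. Not all 15 alternatives were able to end a call, since median-of-ratios scaling could change nothing. Leaving out a library of a group not compared altered the error but not the fold change. Replicates with the same number did not deviate together (correlations across genes of −0.052, 0.050 and −0.058), and nothing in the labels pairs them. With a replicate block the counts were 6, 9, 11 and 12 for the 2 groups together, si1, si2 and si2 against si1. The 13 genes below 1 FPKM had 0 to 346 reads in all, which limits what can be said of them.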
